A study of Mus musculus with 9 samples.

Results

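The osteochondrogenic genes described here are 10 genes that bone and cartilage cells use and that calcifying arteries can also express. They comprise 2 secreted phosphoproteins of bone matrix (Spp1 and Ibsp), 5 transcription factors (Runx1, Runx2, Sox9, Sp7 and Msx2) and 3 cartilage matrix genes (Acan, Matn3 and Chad). They were found by symbol among the non-control probes of the array, and all 10 were present, on 14 of 55681 probes, among 23687 genes with a symbol.

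RNA came from the abdominal aorta of uMT mice on the C57BL/6 background. All groups share this genotype, which stops B cell development early, a deficiency the sham controls carry too. CaCl2 plus IgG aortas had 0.5 M CaCl2 applied around the vessel, and the mice received mouse polyclonal IgG by intraperitoneal injection. CaCl2 aortas had the same salt without IgG, a chemical injury used as a model of abdominal aortic aneurysm, and sham aortas had saline in its place. Tissue of both CaCl2-treated groups was taken 7 days after CaCl2, and neither the age of the mice nor the day of sham sampling is given by the labels. Each group had 3 samples, each on 1 single-colour Agilent array. The labels do not say whether they are separate animals, so the p-values measure only how these samples vary, which may be technical variation.

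When smooth muscle cells take on features of bone or cartilage cells, contractile genes decline and a skeletal programme can appear. In the skeleton, Sox9 directs cells to cartilage and activates Acan and collagen II genes, while Runx2, and Sp7 downstream of it, direct cells to bone. Spp1 and Ibsp encode osteopontin and bone sialoprotein, acidic proteins that bind mineral and integrins. Several of these genes are not restricted to the skeleton: Spp1 is also made by activated macrophages, and Runx1 is a regulator of blood cells.

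RUNX proteins bind short DNA elements that contain TGTGGT, and 3 of the genes hold this hexamer near a start site. RefSeq promoter windows of 300 bases (GRCm38.p6, 250 before to 50 after the start) were found for 8 of the 10 genes, in 10 windows, and not for Sox9 and Sp7. The hexamer, searched on both strands, was present in 3 of the 10 windows and in 16.8% of 32851 mouse windows of the same length. The 3 windows are shown because they belong to an effector gene and to the RUNX genes themselves, with the match in capitals, here always as its reverse complement ACCACA.
Spp1, chr5:104434861-104435160, plus strand: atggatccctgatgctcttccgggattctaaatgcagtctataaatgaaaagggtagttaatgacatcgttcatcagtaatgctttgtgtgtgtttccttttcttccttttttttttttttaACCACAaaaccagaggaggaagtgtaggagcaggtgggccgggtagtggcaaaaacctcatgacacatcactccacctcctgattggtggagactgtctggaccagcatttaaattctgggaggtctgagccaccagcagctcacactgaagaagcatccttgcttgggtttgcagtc
Runx1, distal start, chr16:92826025-92826324, minus strand: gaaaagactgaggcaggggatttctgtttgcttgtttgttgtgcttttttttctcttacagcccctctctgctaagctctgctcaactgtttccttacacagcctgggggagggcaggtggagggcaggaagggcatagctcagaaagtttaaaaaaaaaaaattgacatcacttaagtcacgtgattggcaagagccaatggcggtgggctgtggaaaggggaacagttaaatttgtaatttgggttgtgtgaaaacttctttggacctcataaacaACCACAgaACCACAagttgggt
Runx2, chr17:44814578-44814877, minus strand: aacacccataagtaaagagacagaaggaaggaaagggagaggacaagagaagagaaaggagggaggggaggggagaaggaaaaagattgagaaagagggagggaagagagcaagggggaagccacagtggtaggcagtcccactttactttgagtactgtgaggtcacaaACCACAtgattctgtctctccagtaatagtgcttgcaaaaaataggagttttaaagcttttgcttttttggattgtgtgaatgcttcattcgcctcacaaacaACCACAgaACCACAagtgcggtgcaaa
In Spp1 the match lay at bases -128 to -123 from the start. Runx1 held matches at 29 to 34 and 37 to 42, counted from 1 at the first transcribed base, and Runx2 at -80 to -75, 24 to 29 and 32 to 37. A second window of Spp1 and the proximal window of Runx1 held none. The Sp-type hexamer GGGCGG was in 4 of the 10 windows (Acan, Chad, Matn3 and Msx2), against 35.7% of all windows. The SOX-type motif ACAAT was in 2 (Ibsp and Runx2), against 31.0% of all. A match describes letters in a window and is not evidence of binding.

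Levels are given as log2 of the background-subtracted signal relative to the 75th percentile of the same array, so 0 is the signal of that percentile. The 75th percentile ranged over 270 to 455 units with CaCl2 plus IgG, 379 to 495 with CaCl2 and 266 to 301 in sham aortas. An array had 54.9% to 59.9% of its probes well above background, and 0 spots were saturated. CaCl2 plus IgG replicate 3 stood apart, at 2.56 on the first principal component, where the other 2 arrays of its group read 52.7 and 52.2, CaCl2 arrays 33.0 to 70.5 and sham arrays -104 to -78.6. Sham replicate 3 was the only array on a second slide. Groups were compared with limma, with p-values adjusted over all 16442 tested genes and a threshold of 0.05. Of the 10 genes 9 passed the filter on dim probes. Of these, 5 were well above background on all 9 arrays (Ibsp, Runx1, Msx2, Acan and Chad). The other 4 (Spp1, Sox9, Runx2 and Matn3) passed only through the groups with CaCl2, where they were brighter, so counts over the 9 genes are a description only.

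**Figure D1:**
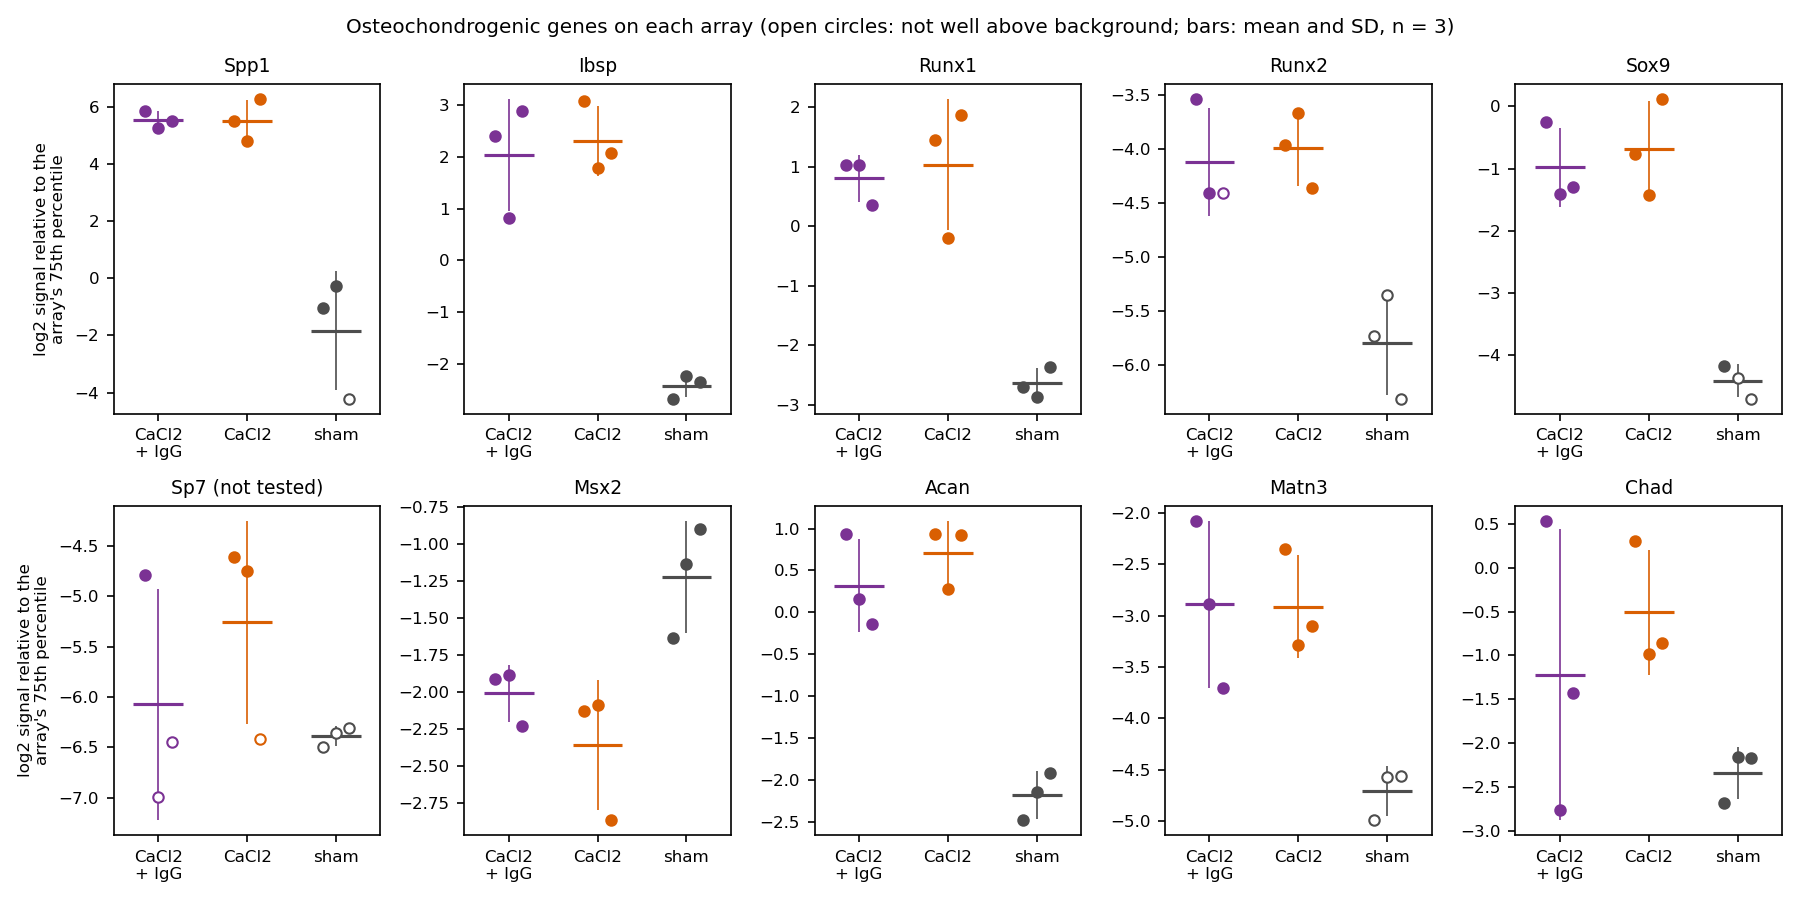
Level of each gene on each array, as log2 signal relative to the 75th percentile of the array, with CaCl2 plus IgG at the left, CaCl2 in the middle and sham at the right of each panel, each panel having its own axis. Horizontal bars are means, vertical bars SDs (n = 3), and open circles mark arrays on which the probe was not well above background. Spp1, Ibsp, Runx1, Sox9, Acan, Runx2 and Matn3 lie higher on all 6 arrays with CaCl2 than on the sham arrays, and Msx2 lies lower.

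The first comparison, CaCl2 against sham, asks what the salt changes in an aorta without B cells. Of the 9 genes tested, 7 were higher with CaCl2 (Spp1, Ibsp, Runx1, Runx2, Sox9, Acan and Matn3), 1 was lower (Msx2) and Chad did not pass. Over all genes tested, 36.4% were called in this comparison, 17.4% higher and 19.0% lower. Counts from the gene lists below are to be read beside these shares. The median change of the 9 genes was 2.90 on the log2 scale, beside -0.08 over all tested genes. This median is a description only, since Spp1, Sox9, Runx2 and Matn3 passed the filter only through the groups with CaCl2. The genes were also chosen with earlier results of these data known. In whole tissue, more cells of a type and more RNA per cell cannot be told apart.

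The secreted phosphoproteins showed the largest changes among the 10 genes. The Spp1 probe, 60 bases of coding sequence at mm9 chr5:104868502-104868561 (plus strand), is shown because 1 probe alone measured the gene.
Spp1 probe: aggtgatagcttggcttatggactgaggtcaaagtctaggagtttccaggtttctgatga
Spp1 read 5.86, 5.24 and 5.50 with CaCl2 plus IgG, 5.49, 4.80 and 6.26 with CaCl2, and -1.04, -0.27 and -4.21 in sham aortas. Both treated groups were far above sham, and sham replicate 3 was far below the other 2 sham arrays and not well above background. The change with CaCl2 was 7.36 ± 0.90 on the log2 scale (SE), or 164-fold (limma adjusted p = 0.000966), the 4th largest absolute change of all genes tested. Over all single arrays left out it ranged from 6.17, without sham replicate 3, to 8.14. On the main slide all 3 CaCl2 arrays lay in row 1 and the other 2 sham arrays in row 2, so without sham replicate 3 this comparison and the slide row cannot be told apart. With the slide row as a block the change was 8.38 (limma adjusted p = 0.003). In that fit the only sham array in row 1 was sham replicate 3, from the second slide, so row and slide were not separated. CaCl2 plus IgG and sham had 2 arrays each in row 2 of the main slide, and there Spp1 differed by 6.03.

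Macrophage markers moved in the same samples as Spp1. Of 14 monocyte and macrophage markers, 12 were higher with CaCl2 than in sham aortas and 0 lower, with a median change of 2.57. Among them Cx3cr1 rose by 4.48 on the log2 scale, Lyz2 by 3.35 and Cd14 by 3.32. Cd163 (-1.82, adjusted p = 0.081) and Mrc1 (1.32, adjusted p = 0.064) did not pass. Their summed linear level, in multiples of the 75th percentile, was 298 to 371 with CaCl2 plus IgG, 336 to 374 with CaCl2 and 37.2 to 120 in sham aortas. Sham replicate 3 was the lowest array for these markers too, with a mean log2 level of 0.11, against 1.51 and 1.81 in the other sham samples. Of the 14 markers, all but Cd163 were well above background on each of the 9 arrays. Their part in the Spp1 result was not tested.

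Ibsp followed the same pattern from a tighter baseline. Its brighter probe (mm9 chr5:104740413-104740472) read 2.40, 0.82 and 2.88 with CaCl2 plus IgG, 3.07, 1.79 and 2.07 with CaCl2, and -2.67, -2.23 and -2.36 in sham aortas. The sham samples lay within 0.44 of each other and well below every treated sample. The change with CaCl2 was 4.73 ± 0.53, or 26.5-fold (limma adjusted p = 0.000794), the 38th largest absolute change of all genes. The second Ibsp probe (mm9 chr5:104739720-104739779) changed by 4.31 ± 0.56 (adjusted p = 0.00186 over 32166 kept probes). The brighter probe exceeded it by 1.22 to 1.48 on CaCl2 plus IgG arrays, 1.37 to 1.46 on CaCl2 arrays and 0.95 to 1.07 on sham arrays.

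Among the transcription factors, Sox9 and Runx1 changed most. Sox9, the cartilage regulator, read -0.24, -1.40 and -1.29 with CaCl2 plus IgG, -0.76, -1.43 and 0.11 with CaCl2, and -4.17, -4.36 and -4.69 in sham aortas. It was well above background on all treated arrays and on 1 of 3 sham arrays. The fitted change with CaCl2 was 3.72 ± 0.43 on the log2 scale (limma adjusted p = 0.000856), and no fold is given because 2 sham arrays did not have it well above background. With normexp background correction it was 1.58 and still passed. Its single probe (mm9 chr11:112648809-112648868) was spotted 10 times on each array and averaged.

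Runx1 was measured by 2 probes, which gave near-equal changes. The brighter (mm9 chr16:92605785-92605844) read 1.03, 1.03 and 0.36 with CaCl2 plus IgG, 1.45, -0.20 and 1.87 with CaCl2, and -2.69, -2.86 and -2.36 in sham aortas. No treated sample came near the sham range. The change with CaCl2 was 3.68 ± 0.49, or 12.8-fold (limma adjusted p = 0.00130), and 4.30 without CaCl2 replicate 2, the lowest treated array. The other probe changed by 3.55 ± 0.32. Of 10 haematopoietic markers, 8 were higher with CaCl2 (Vav1 by 3.05, Ptprc, the CD45 gene, by 2.88) and 2 lower (Kit by -1.36 and Tal1 by -0.76). Their summed linear level was 62.4 to 67.4 with CaCl2 plus IgG, 57.8 to 99.1 with CaCl2 and 11.5 to 21.8 in sham aortas. Only Spi1 was not well above background on every array, missing on 1 sham array. The part of blood cells in the Runx1 result was not tested.

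Runx2, the bone regulator, was near background throughout, and its 3 probes did not give the same answer. The only probe that passed the filter (mm9 chr17:44633034-44633093) lies 111.8 kb from the probe in the coding sequence and belongs to a different annotated transcript. It read -3.54, -4.41 and -4.41 with CaCl2 plus IgG, -3.96, -3.66 and -4.36 with CaCl2, and -5.73, -5.35 and -6.31 in sham aortas. It was well above background on 2 of 3, 3 of 3 and 0 of 3 arrays of these groups, so sham gives only a bound. Runx2 by this probe was at least 1.21-fold higher with CaCl2, against measured means of -4.00 with CaCl2 and -5.80 in sham aortas. The limma adjusted p = 0.00454 is for the measured difference of 1.80, not for the bound. With normexp background correction the measured difference was -0.10 (adjusted p = 0.574), so the call was lost and the sign turned. The coding probe (mm9 chr17:44744925-44744984, minus strand) is shown because it is the one read in the protein-coding part of the gene.
Runx2 coding probe: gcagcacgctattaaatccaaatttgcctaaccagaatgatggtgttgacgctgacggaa
It read -4.70, -5.50 and -4.33 with CaCl2 plus IgG, -4.45, -4.89 and -5.64 with CaCl2, and -4.78, -6.11 and -5.65 in sham aortas, and the groups overlapped. It was well above background on 1, 1 and 0 arrays of the groups. The third probe (mm9 chr17:44951128-44951187) read -5.90 to -3.84 with CaCl2 plus IgG, -5.41 to -5.15 with CaCl2 and -5.61 to -4.83 in sham aortas, and was well above background on 1, 0 and 0 arrays.

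**Figure D2:**
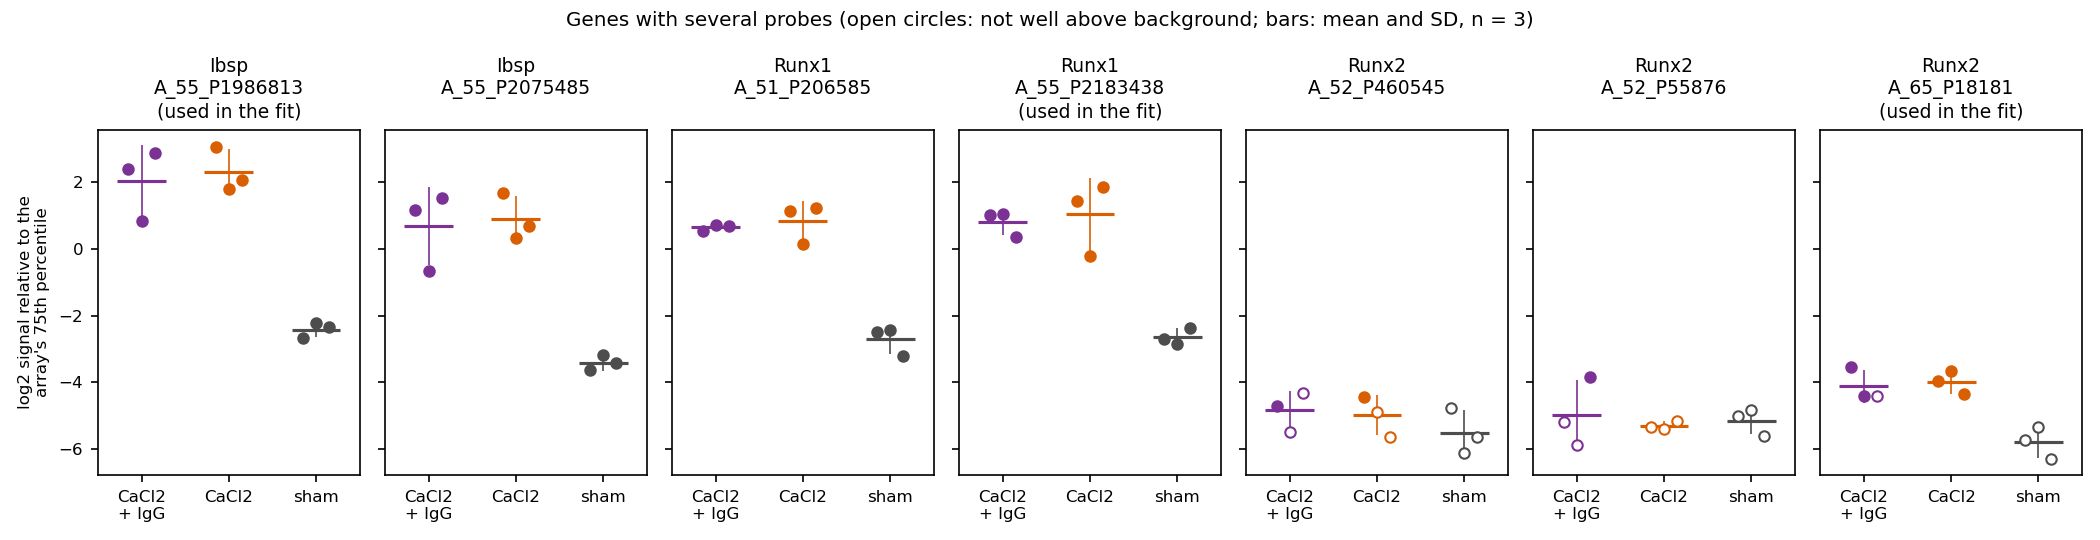
Every probe of the 3 genes with several probes, on a common vertical axis of log2 signal relative to the 75th percentile of the array, with CaCl2 plus IgG at the left, CaCl2 in the middle and sham at the right of each panel (points are arrays, bars are means and SDs, n = 3, open circles are not well above background). Both probes of Ibsp and both of Runx1 separate the treated arrays from sham, while the Runx2 probes lie between -6.31 and -3.54 and 2 of the 3 overlap between groups.

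Sp7, the bone factor known as osterix, was not tested, since no group had it well above background on all arrays. Its probe (mm9 chr15:102187692-102187751) read -4.78, -6.99 and -6.44 with CaCl2 plus IgG, -4.61, -4.75 and -6.42 with CaCl2, and -6.49, -6.35 and -6.30 in sham aortas. It was well above background on 1, 2 and 0 arrays of these groups, and the groups overlapped.

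Msx2, a homeobox factor of bone and vascular mural cells, moved the other way. It read -1.91, -1.88 and -2.23 with CaCl2 plus IgG, -2.13, -2.09 and -2.87 with CaCl2, and -1.64, -1.13 and -0.90 in sham aortas. All treated samples lay below all sham samples, and CaCl2 arrays lay below sham without overlap for 31.9% of all tested genes. The change with CaCl2 was -1.14 ± 0.26 (limma adjusted p = 0.012), by a probe at mm9 chr13:53562318-53562377. With arrays scaled to their median it was -0.66 (adjusted p = 0.170), a scaling that moved the median change of all genes to 0.39, against -0.08.

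Of the cartilage matrix genes, Acan and Matn3 were called higher with CaCl2 and Chad did not pass. Acan encodes aggrecan, the large proteoglycan of cartilage (mm9 chr7:86259741-86259801). It read 0.94, 0.16 and -0.14 with CaCl2 plus IgG, 0.93, 0.28 and 0.93 with CaCl2, and -2.48, -2.15 and -1.92 in sham aortas. Treated and sham samples were separated by more than the spread within any group, with a change of 2.90 ± 0.31, or 7.44-fold, with CaCl2 (limma adjusted p = 0.000690). Matn3, a cartilage matrilin (mm9 chr12:8977503-8977562), read -2.08, -2.89 and -3.70 with CaCl2 plus IgG, -2.35, -3.29 and -3.10 with CaCl2, and -4.99, -4.57 and -4.56 in sham aortas. No sham array had it well above background. Matn3 was at least 2.57-fold higher with CaCl2. The limma adjusted p = 0.011 is for the measured difference of 1.80, not for the bound. The call was lost with normexp background correction (0.17 on the log2 scale, adjusted p = 0.449) and with the slide row as a block (1.32, adjusted p = 0.071).

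Chad encodes chondroadherin, a leucine-rich protein that binds chondrocytes and collagen (mm9 chr11:94430136-94430195). It read 0.53, -2.76 and -1.43 with CaCl2 plus IgG, 0.31, -0.98 and -0.86 with CaCl2, and -2.68, -2.16 and -2.17 in sham aortas. The CaCl2 samples did not overlap with sham, as for 24.7% of all tested genes in that direction, but CaCl2 plus IgG replicate 2 lay below all sham samples. The difference between CaCl2 and sham was 1.83 ± 0.74 (limma adjusted p = 0.083). It passed with arrays scaled to their median (2.30, adjusted p = 0.028), with only the CaCl2 and sham arrays in the fit (adjusted p = 0.008), and without CaCl2 plus IgG replicate 1 (0.019) or 2 (0.037).

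**Figure D3:**
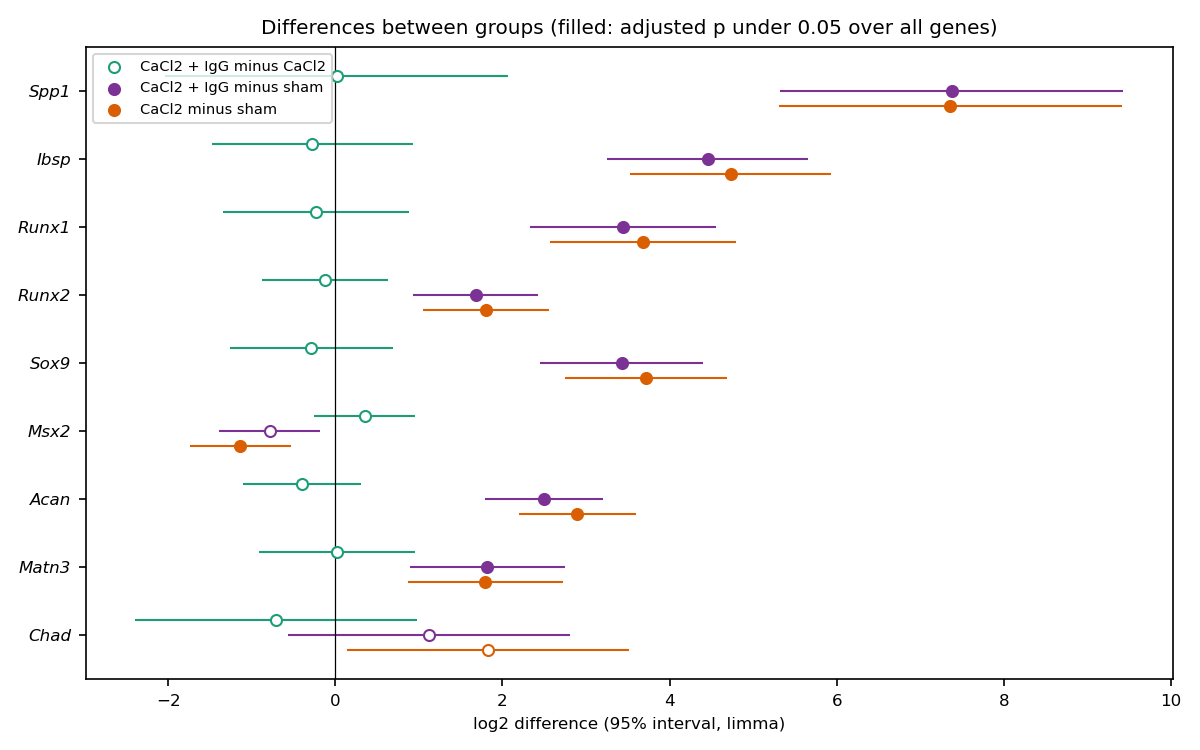
Log2 differences of the 9 tested genes with 95% intervals from limma, for CaCl2 plus IgG minus CaCl2 (green), CaCl2 plus IgG minus sham (purple) and CaCl2 minus sham (orange), filled where the adjusted p over all genes was under 0.05. Every green interval spans 0. Against sham all genes but Msx2 lie above 0, of which 7 are filled and Chad is open. The differences drawn for Runx2 and Matn3 against sham are measured values, where sham was not well above background.

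The second comparison, CaCl2 plus IgG against CaCl2, asks whether injected IgG alters the response. None of the 9 genes passed (limma adjusted p = 1.00 for each), and over all genes 0 were called, 0% of those tested, with 241 genes at an unadjusted p under 0.05. The differences ran from -0.71 for Chad to 0.35 for Msx2. For Spp1 the difference was 0.02, with a 95% interval of -2.03 to 2.07. The intervals were -1.48 to 0.93 for Ibsp, -1.34 to 0.88 for Runx1, -1.26 to 0.69 for Sox9 and -1.10 to 0.31 for Acan. The interval was widest for Spp1 and next widest for Chad, at -2.39 to 0.97, and narrowest for Msx2, at -0.25 to 0.95. These intervals do not show that the groups were equal. For every gene of the 9 the arrays of the 2 groups overlapped, where 2.55% of all tested genes lay higher and 2.54% lower without overlap, so their order is not settled by these samples.

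The third comparison, CaCl2 plus IgG against sham, uses the same sham arrays as the first, so it is not independent of it. Of the 9 genes, 7 were higher (Spp1, Ibsp, Runx1, Runx2, Sox9, Acan and Matn3), 0 were lower and 2 did not pass, where 29.0% of all genes tested were called, 14.7% higher and 14.3% lower. The arrays of these 7 genes did not overlap with sham, as for 20.3% of all genes tested in that direction. Spp1 was higher by 7.37 ± 0.90 on the log2 scale (limma adjusted p = 0.00105), and by 6.19 without sham replicate 3. Ibsp was higher by 4.45 ± 0.52 (5.06 without CaCl2 plus IgG replicate 2), Runx1 by 3.44 ± 0.49, Sox9 by 3.43 ± 0.43 and Acan by 2.501 ± 0.308. Matn3 was at least 2.61-fold higher. Runx2 was well above background on only 2 of 3 arrays with CaCl2 plus IgG and on 0 sham arrays, so no bound is given. Its measured difference was 1.68. The limma adjusted p = 0.012 for Matn3 and 0.007 for Runx2 are for measured differences. Both calls were lost with normexp background correction (0.31 and -0.03 on the log2 scale). Msx2 differed by -0.79 ± 0.26 (adjusted p = 0.055), with no overlap between the groups, as for 24.0% of all genes in that direction. It passed without sham replicate 1 (-0.99, adjusted p = 0.037) or without CaCl2 replicate 3 (adjusted p = 0.030). Chad differed by 1.12 ± 0.74 (adjusted p = 0.276), by 0.24 without CaCl2 plus IgG replicate 1 and by 1.89 without replicate 2.

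Other genes of the skeletal programme were read from lists that leave out the 10 genes. Of 18 cartilage matrix genes 12 were measured, and with CaCl2 8 were higher, 2 lower and 2 did not pass, with a median change of 2.45. Of the 12, 7 were not well above background on every sham array and passed the filter only through the groups with CaCl2, so this count and median are a description only. The other 5 comprised 3 higher genes (Prg4, Comp and Matn4) and 2 lower. Col2a1, the main collagen of cartilage, was at least 26.3-fold higher than in sham aortas, and Col11a1, its fibril partner, at least 11.2-fold. The limma adjusted p = 0.000691 and 0.000828 are for their measured differences, not for the bounds. Comp, a cartilage and tendon glycoprotein, rose by 3.65 ± 0.34. Prg4, the lubricin gene, changed by 6.41 ± 0.29 by its brighter probe, but by 0.22 by its other probe. Hapln1, the link protein that ties aggrecan to hyaluronan, fell by 2.18 on the log2 scale, and Cytl1, a cytokine-like protein of cartilage, by 1.13. Col10a1, a marker of hypertrophic cartilage picked with its values in view, was at least 3.01-fold higher. These bounds apply to the main background subtraction, and normexp gave smaller differences, 2.69 for Col2a1, 1.74 for Col11a1 and 0.55 for Col10a1 on the log2 scale. With normexp background correction 5 of the 12 were higher and 3 lower, and the median was 0.78. With CaCl2 plus IgG 7 were higher than in sham aortas, 2 lower and 3 did not pass.

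The count of called genes of bone matrix and mineralisation depended on the arrays used. Of 17 listed, 15 were measured, and with CaCl2 1 was higher (Ank, a pyrophosphate transporter, by 1.45 ± 0.23), 2 were lower and 12 did not pass. The lower genes were Fgf23, a hormone of phosphate balance, at -1.49 ± 0.42, and Omd, the bone proteoglycan osteomodulin, at -0.98 ± 0.31. Over all genes tested, 17.4% were called higher and 19.0% lower. The median change of the list was -0.30, and 0.18 with arrays scaled to their median. Without CaCl2 plus IgG replicate 3, the array that stood apart, 2 were higher and 6 lower, and without sham replicate 3, 1 was higher and 0 were lower. With normexp background correction 2 were higher and 4 lower. The 12 genes that did not pass with all arrays ran from -1.47 for Sost to 1.56 for Bglap2. Bglap2, Alpl, Bglap and Mepe, also picked with their values in view, did not pass, unlike Fgf23 and Omd of the same list. Bglap2, an osteocalcin gene near-identical to its neighbour Bglap, differed by 1.56 ± 0.96 with CaCl2 (limma adjusted p = 0.227). With CaCl2 plus IgG it differed from sham by 2.13 ± 0.96 (adjusted p = 0.129), with no overlap, as for 20.3% of all genes in that direction. Alpl, the mineralising phosphatase, differed by 0.19 ± 0.63, Bglap by 0.10 ± 0.81 and Mepe by 0.04 ± 0.47 (limma adjusted p = 0.834, 0.932 and 0.950). Dmp1 and Dspp did not pass the filter on dim probes. For the label of an osteochondrogenic switch, genes called higher with CaCl2 included Spp1 and Ibsp of bone and Acan, Matn3 and Sox9 of cartilage. Runx1 and 1 Runx2 probe were also called higher, Msx2 was lower and Chad did not pass. The Matn3 and Runx2 calls were lost with normexp background correction. The cartilage list held 8 higher and 2 lower genes, and neither osteocalcin gene passed. Spp1, Sox9, Runx2, Matn3 and part of the cartilage list passed the filter only through the groups with CaCl2. What is listed here for the label is therefore a description only. Sp7 and the Runx2 coding probe were too dim to be tested. With CaCl2 plus IgG, Sost, the sclerostin gene, was lower than in sham aortas (-3.25 ± 0.55, adjusted p = 0.004), and Sost differed by -1.47 with CaCl2 alone (adjusted p = 0.065). Between the treated groups Sost differed by -1.78 (adjusted p = 1.00).

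Of 20 further skeletal transcription regulators 18 were measured, and with CaCl2 3 were higher, 3 lower and 12 did not pass, with a median change of -0.10. Over all genes 36.4% were called, 17.4% higher and 19.0% lower, so the regulators lay near the background and the count is no result about them. Zfp521, a zinc finger protein of mesenchymal progenitors, rose by 1.38 ± 0.23, Trps1, a regulator of growth plate cartilage, by 1.09 ± 0.21 and Cbfb, the DNA-binding partner of the RUNX proteins, by 1.03 ± 0.16. Sox6, which acts with Sox9 in cartilage, fell by 1.67, Nkx3-2 by 1.27 and Foxc1 by 1.01 on the log2 scale. Sox6 and Nkx3-2 were near background with CaCl2 (means of -4.13 and -4.18), and Sox6 was well above it on only 1 CaCl2 plus IgG array. With normexp background correction the differences between CaCl2 and sham were -0.89 for Sox6 and -0.75 for Nkx3-2. Cbfb and Foxc1 were picked with their values in view. Runx3 and Sox5 did not pass by their brightest probes (-0.65 and -0.14), while 1 other probe of each had the opposite sign, at 3.34 and 1.19. With arrays scaled to their median 3 were higher and 1 lower, and the median was 0.37.

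Of 9 genes for receptors of osteopontin and bone sialoprotein, 2 were higher with CaCl2 and 6 lower, with a median of -0.61. The lower genes numbered 4 with the slide row as a block and 4 without sham replicate 3. Cd44, a hyaluronan and osteopontin receptor, rose by 1.77 ± 0.25 and Itga4 by 1.05 ± 0.14, although a second Itga4 probe read 0.06. The integrin chains Itga9, Itga8 and Itga5 fell by 1.98, 1.88 and 1.40 on the log2 scale. Itgb3 differed by -0.74 by its brighter probe, but by 0.16 by its other probe. With arrays scaled to their median 2 receptor genes were higher and 3 lower. Among 5 aggrecanases, the enzymes that cut aggrecan, Adamts4 rose by 2.55 ± 0.39, Adamts1 fell by 0.84 and 3 did not pass. The fall of Adamts1 was lost with arrays scaled to their median (-0.37) and without sham replicate 3.

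**Figure D4:**
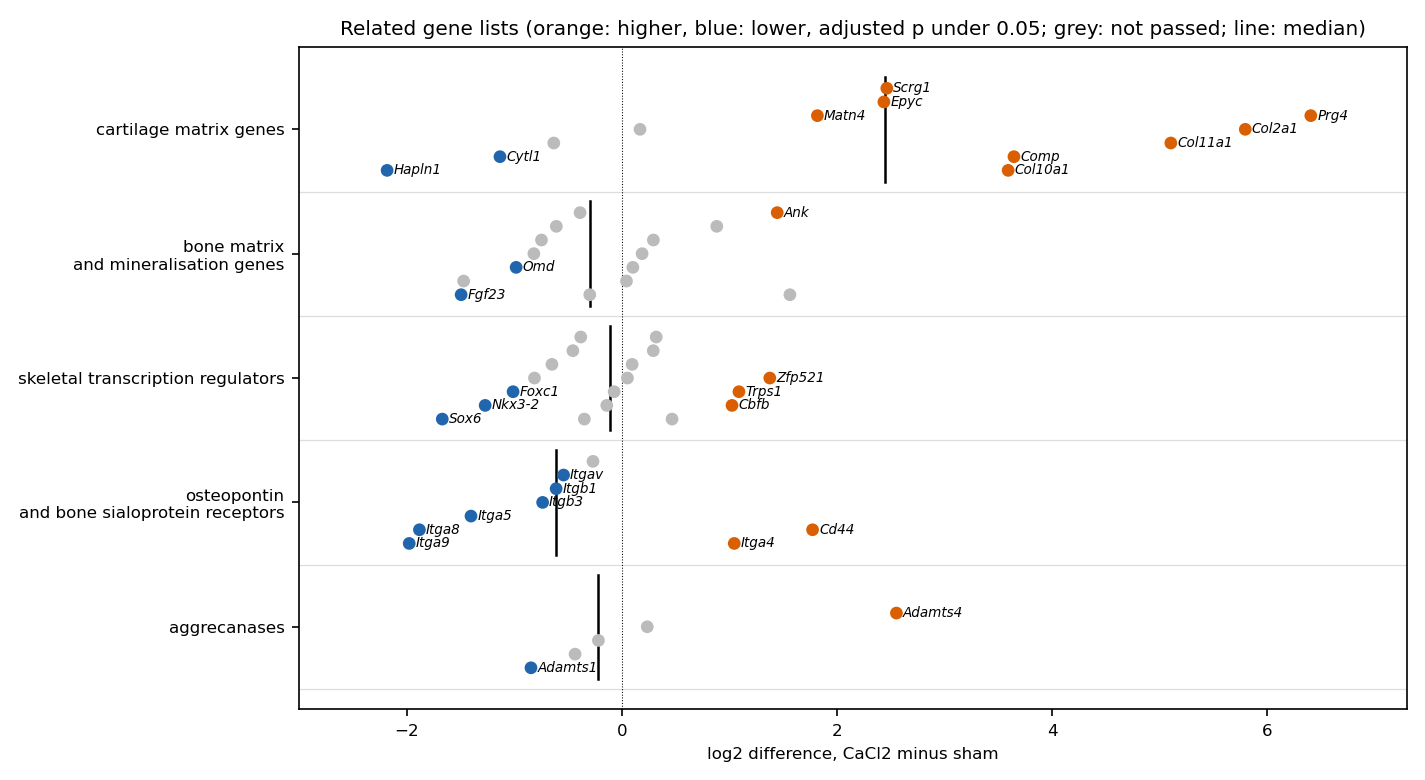
Log2 difference between CaCl2 and sham for each measured gene of 5 related lists, with genes spread vertically within a list only for legibility. Orange points are higher and blue points lower at an adjusted p under 0.05, grey points did not pass, and black lines are medians (2.45 for cartilage matrix, -0.30 for bone matrix, -0.10 for regulators, -0.61 for receptors and -0.22 for aggrecanases). The cartilage list reaches the highest values, up to Prg4 at 6.41, and Col2a1, Col11a1, Col10a1 and Scrg1 are drawn at their measured differences, where sham was not well above background.

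Smooth muscle contractile genes fell in the same comparison. All 10 listed were lower with CaCl2 than in sham aortas, with a median of -2.21, and all 10 were lower with CaCl2 plus IgG. With CaCl2 Myocd fell by -2.82, Des by -2.40, Myh11, the smooth muscle myosin, by -2.37 and Acta2 by -1.48. Their summed linear level was 902 to 1228 with CaCl2 plus IgG, 820 to 1326 with CaCl2 and 2691 to 3087 in sham aortas. Of 11 fibroblast markers, 6 were higher with CaCl2 and 0 lower (Dpt by 4.91, Fap by 2.52, Lum by 1.79). With CaCl2 plus IgG 7 were higher than in sham aortas and 1 lower (Postn, by -0.92). Postn did not pass with CaCl2 (-0.64). The fibroblast sums were 2146 to 2527 with CaCl2 plus IgG, 1973 to 2322 with CaCl2 and 1416 to 1793 in sham aortas. The 11 fibroblast markers and the 10 contractile genes were well above background on every array. Their part in the changes of the osteochondrogenic genes was not tested.

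Across the 9 arrays the tested genes varied together, with Pearson's r of 0.97 between Sox9 and Acan, 0.97 between Sox9 and Runx1 and 0.93 between Spp1 and Ibsp, while Msx2 correlated with Sox9 at -0.88. These values describe 9 arrays in which the treated and sham groups differ, and carry no test. The 3 named genes most like Spp1 in level were Nckap1l, Plcl2 and Rab8b (r of 0.997, 0.996 and 0.996 over 9 arrays). For Sox9 they were Ces2e, S100a4 and Fam102a (0.997, 0.991 and 0.990), and for Acan they were Lrp1, Pde8a and Fam102a (0.993, 0.991 and 0.991). For Runx1 they were Crabp2, Tmc6 and Il20ra (0.994, 0.991 and 0.989). Ibsp was most like Csta2, Cgn and Cadm1 (0.988, 0.988 and 0.987), and the passing Runx2 probe most like Osbpl8, Ccbe1 and Rab31 (0.987, 0.985 and 0.980).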

How the data were processed

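Total RNA of 9 abdominal aorta samples from uMT mice was measured on single-colour Agilent arrays, 3 per group, with groups read from the sample titles. Per the labels' protocols, RNA was taken up in TRIzol; they name 2 purification kits, SV Total RNA Isolation and RNeasy, and which was used is not settled. The deposited scanner files hold background-subtracted intensity per spot, with spatial trends removed within each array, made with Agilent Feature Extraction 10.7.1.1 per the file headers, while the submitters' processing notes name version 9.5.1.1. The authors' deposited values of the whole series, also intensity, have a median of 29.7 in every column, and each column followed its own array with r of at least 0.999. These values served as an alternative. How they were normalized is not stated in the labels or headers. Columns left unmapped numbered 0.

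Spots were put on the log2 scale minus the 75th percentile of all spots that were not controls. Control and outlier spots were left out and spots of 1 probe averaged. A probe was kept (32166 of 55681) if every array of some group had it well above background, and the brightest kept probe stood for its gene. Probes were named through accession (27235), symbol (3581) or older symbol (556) in the RefSeq gene table of GRCm38.p6, or by the file's name only (1431), and 22878 had no symbol; probe coordinates are those of the files, in mm9. The group comparisons ran in R 4.3.3 with limma 3.58.1 (lmFit, eBayes) and data.table (version 1.17.8), in 1 fit of 9 arrays with 6 residual degrees of freedom, two-sided, with Benjamini-Hochberg adjustment over 16442 genes and a threshold of 0.05. The script was tested on simulated data. Where a probe was well above background on no array of a group and on every array of the other, the ratio is at least N-fold. It is taken against a floor per array, either the dimmest probe still well above background or the probe itself, whichever was higher. Promoters came from RefSeq windows of GRCm38.p6. Genes are named as members with every probe, and from each list by up to 4 called genes with the largest change plus those against the majority. Some further genes were named outside this rule, among them Acta2, genes picked with their values in view and genes that did not pass. The members and lists were chosen with earlier results of these data known. Replicate numbers were not treated as pairs. The deviations of samples with the same number correlated at -0.198 to 0.224, which with 3 arrays per group cannot settle whether they are paired. Alternatives were other scalings, normexp background correction (offset 50), other filters, other handling of probes, the slide row or replicate number as a block, an intensity trend, fits of 2 groups, and leaving out each array.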

Additional observations from a re-analysis of the deposited data

How the results depend on the processing

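Limits are the 3 arrays per group and, for Runx2, Sp7 and Matn3, signal near background. Spp1, Ibsp, Runx1, Sox9 and Acan stayed higher and past the threshold against sham in every alternative that measured them. With normexp background correction Runx2 read -0.10 in CaCl2 against sham and -0.026 in CaCl2 plus IgG against sham, and 1 of the 9 genes was lower in CaCl2 plus IgG against sham. With a filter for probes well above background on all 9 arrays, 5 genes were left, of which 3 were higher in each comparison with sham and 1 was lower in CaCl2 plus IgG against sham; this filter removes genes dim in sham. With arrays scaled to their median 0 of the 9 genes were lower in CaCl2 against sham, all genes called in CaCl2 plus IgG against sham numbered 2985 (main 4770), and the share of calls that were higher was 77.2% with CaCl2 and 71.7% with CaCl2 plus IgG, against 47.8% and 50.6%. In CaCl2 against sham (main 5992) the slide row as a block gave 3381 calls (55.1% higher), quantile normalization 56.7% higher, and every kept probe 10457 calls (38.7% higher) among 32166 probes tested. Leaving out 1 array gave 3924 (without sham replicate 3) to 7381 calls in CaCl2 against sham, 2985 (without CaCl2 plus IgG replicate 2) to 6673 in CaCl2 plus IgG against sham, and 0 to 2 in CaCl2 plus IgG against CaCl2; genes lower in CaCl2 plus IgG against sham numbered 0 to 1 of the 9. Without CaCl2 replicate 1 the first count was 3959. Between CaCl2 plus IgG and CaCl2, where no call was made, signs turned. Median scaling gave -0.21 for Matn3 and -0.21 for Spp1, quantile normalization -0.25 and -0.018, the authors' series values -0.25 and -0.016, and normexp 0.075 for Runx2. The slide row as a block gave 0.045 for Acan, 0.25 for Chad, 0.016 for Runx1 and -1.002 for Spp1. Leaving out 1 array gave -0.70 to 0.33 for Ibsp, -0.38 to 0.43 for Matn3, -0.41 to 0.042 for Runx2, -0.34 to 0.39 for Spp1, -0.85 to 0.18 for Runx1, -0.66 to 0.11 for Sox9 and -1.59 to 0.061 for Chad. Except where a filter or a left-out array made the difference, the cause was not tested. The replicate number as a block gave 5748, 0 and 4659 calls in CaCl2 against sham, CaCl2 plus IgG against CaCl2 and CaCl2 plus IgG against sham, and changed no call of the 9 genes.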

Other observations

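Osteoclast genes, which belong to cells that resorb bone and are shared with macrophages, were described from a separate list of 9, of which 8 were measured. With CaCl2 5 were higher than in sham aortas, 0 lower and 3 did not pass, with a median log2 change of 1.099. Dcstamp, which cell fusion requires, rose by 3.03 ± 0.54, Atp6v0d2, a proton pump subunit, by 2.58 ± 0.65, Acp5, the tartrate-resistant phosphatase, by 2.43 ± 0.22 and Ctsk, the cathepsin K gene, by 1.60 ± 0.21 (SE; limma adjusted p of 0.004, 0.017, 0.000456 and 0.001). The 3 that did not pass with CaCl2 were Oscar (-0.60), Tnfrsf11a (-0.43) and Ocstamp (0.53). With CaCl2 plus IgG 5 were higher than in sham aortas, and 3 without sham replicate 3 or without CaCl2 plus IgG replicate 3. Without CaCl2 plus IgG replicate 3, 1 marker was also called lower in each comparison with sham. None was called between CaCl2 plus IgG and CaCl2.

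Of 8 T cell markers 7 were measured, and 6 were higher with CaCl2 than in sham aortas and 0 lower, with a median of 3.02. Cd3d and Cd3g were well above background on 2 sham arrays and Cd8a on 0. These genes passed the filter only through the groups with CaCl2, so the count and median are a description only. With normexp background correction 5 were higher, the median was 2.14 and Cd8a read -0.11. Of 8 endothelial markers 2 were higher and 2 lower. Over all genes tested, 17.4% were called higher and 19.0% lower with CaCl2, so the endothelial count lay near the background. Of 8 skeletal muscle markers 4 were measured, of which 2 were lower, and of 8 adipocyte markers 6 were measured, of which 5 were lower with CaCl2 plus IgG and 1 was lower with CaCl2 than in sham aortas. The 5 became 1 without CaCl2 plus IgG replicate 3 and 2 without sham replicate 3, and 0 of the 6 were called between CaCl2 plus IgG and CaCl2 in limma, with 0 at an unadjusted p under 0.05.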
